A study of Mus musculus with 27 samples.

Results

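Described here are 7 genes of endoderm, out of 38123 genes with a value in the files: the transcription factor genes Gata4, Gata6, Sox17, Sox7 and Foxa2, the endocytic adaptor gene Dab2 and the receptor gene Pdgfra. They were named by symbol, matched to the Ensembl identifiers of the files through a reference annotation, and all 7 were found. GATA4 and GATA6 are zinc finger factors that set up primitive endoderm, the layer of the blastocyst that gives rise to the yolk sac. The SoxF proteins SOX17 and SOX7 act below them, FOXA2 opens chromatin in definitive and visceral endoderm, DAB2 links cargo receptors to clathrin in visceral endoderm, and PDGFRA marks primitive endoderm cells and their precursors. Undifferentiated embryonic stem cells carry little of these RNAs, and forced GATA6 or GATA4 turns such cells into extraembryonic endoderm.

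The series followed an XY mouse embryonic stem cell line, DTCM23/49, which carries a conditional Dicer allele. Dicer is the RNase III enzyme that cuts microRNA precursors. Treatment with 4-hydroxytamoxifen at 800 nM removed the RNase III domain, Dicer-deficient colonies were picked and expanded, and all cells were kept in serum and leukemia inhibitory factor, on gelatin. Whole cells were taken on days 0, 4, 8, 10 and 12, and nuclear and cytoplasmic fractions on days 12 and 0, with 3 replicates in each of the 9 groups (27 libraries of polyadenylated RNA). By the labels day 0 precedes induction and none of the later libraries is marked as ethanol-treated. Loss of Dicer therefore cannot be told apart from the drug, time in culture or colony expansion.

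Expression was given as FPKM, fragments scaled by transcript length and by mapped fragments, which can be compared between genes and is relative within a library. The values moved in whole steps of 1 fragment, which gave fragment counts for 27105 of 27129 genes above 0. Relative depth was 0.721 to 3.62, with the 3 day 0 whole cell libraries deepest (3.07 to 3.62 against 0.721 to 1.12 for the other whole cell libraries). Dicer1 fell to 1.41 ± 0.462, 1.71 ± 0.173 and 1.82 ± 0.124 FPKM on days 4, 8 and 10, against 16.3 ± 1.47 FPKM on day 0 (SD, n = 3 each; exact permutation p = 0.1 for each day, the smallest that 3 against 3 allows). The whole cell libraries labelled day 12 went against their label, with 14.6 ± 1.77 FPKM of Dicer1 (exact permutation p = 0.3 against day 0), and their files list the genes in another order and with more decimals. They are called "labelled day 12" below. In the fractions Dicer1 fell to 4.20 ± 1.11 FPKM in nuclei on day 12, against 13.3 ± 4.75 on day 0, and to 3.06 ± 0.366 in cytoplasm on day 12, against 22.5 ± 1.18 on day 0. Nucleus day 0 replicate 3 and nucleus day 12 replicate 1 stood farthest from their groups (mean correlation with the group 0.923 and 0.944). Pou5f1, which defines embryonic stem cells, stayed high, at 410 ± 37.7 FPKM on day 4 and 385 ± 20.1 on day 10, against 332 ± 15.8 on day 0.

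Because the cells lose microRNA processing, the seeds of chosen microRNA families were set against the 3′ UTRs of the endoderm genes. The mature sequences are shown because the seed, bases 2 to 8 (capitals), decides which 7-base sites were searched. They are from RefSeq, build GRCm38.p6, written 5′ to 3′.
miR-291a-3p: aAAGUGCUuccacuuugugugc
miR-294-3p: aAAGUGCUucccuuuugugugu
miR-302b-3p: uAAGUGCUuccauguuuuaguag
miR-17-5p: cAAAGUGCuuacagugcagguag
miR-93-5p: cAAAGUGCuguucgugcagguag
miR-25-3p: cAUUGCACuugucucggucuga
miR-200b-3p: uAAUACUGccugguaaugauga
let-7c-5p: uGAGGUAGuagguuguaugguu
The first 3 of these share the seed AAGUGCU, also found in miR-295-3p and miR-302d-3p, and miR-17-5p shares its seed with miR-93-5p. The seed shared by miR-294-3p and miR-302b-3p had no match, AGCACTT, in the longest GENCODE M21 3′ UTR of any of the 7 genes, whereas 14.6% of 20962 genes with a 3′ UTR held one. No match to let-7, CTACCTC, was found in them either (8.96% of genes hold one). Dab2 and Pdgfra each held 1 match to the miR-17 seed, GCACTTT (11.7% of genes), Gata4 held 1 to the miR-200b seed, CAGTATT (13.2%), and Gata6 held 1 to the miR-25 seed, GTGCAAT (6.56%). Only the sense strand of the UTR was searched, and the first motif and that of miR-17 overlap in 6 letters, so 1 stretch can hold both. The sites of Gata4, Dab2 and Pdgfra are shown in 30-base windows of the transcript strand with the match in capitals.
Gata4 (chr14:63198940-63198969, minus strand, GRCm38): tggctgtaaaatCAGTATTtaactaataaa
Dab2 (chr15:6440638-6440667, plus strand, GRCm38): ttgtcttcttgtGCACTTTtctgtatgcaa
Pdgfra (chr5:75197973-75198002, plus strand, GRCm38): acgttaactgttGCACTTTtgaatgtccaa
A match is a stretch of letters and not a shown site of repression, and the levels below give no test of it.

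Gata4 was the member with the most lasting rise. Its gene lies on chromosome 14 at 63198922-63271692 of GRCm38, minus strand, identifier ENSMUSG00000021944. Whole cells held 0.679, 0.429 and 0.622 FPKM on day 0, then 1.63, 1.29 and 2.21 on day 4. On day 8 they held 0.985, 0.928 and 1.32 FPKM and on day 10 1.29, 1.41 and 1.48. Every library of days 4, 8 and 10 lay above every library of day 0, and days 4 and 10 overlapped. The mean was 2.97-fold the day 0 mean on day 4, 1.87-fold on day 8 and 2.42-fold on day 10. On the log2(FPKM + 0.5) scale, which understates the change of low genes, Gata4 rose by 1.02 ± 0.17 (SE, limma adjusted p = 0.00155) on day 4, 0.55 ± 0.17 (adjusted p = 0.0237) on day 8 and 0.82 ± 0.17 (adjusted p = 0.00137) on day 10. The day 8 call was lost with median-of-ratios scaling (adjusted p = 0.0563), quantile normalization (0.213), without day 0 replicate 2 (0.0972) and without day 8 replicate 3 (0.101). In bulk RNA a higher level in each cell and a larger share of cells with the RNA cannot be told apart, here and for every gene below.

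The fractions also held more Gata4 on day 12. Cytoplasm had 1.73, 1.66 and 2.04 FPKM on day 12, against 0.481, 0.347 and 0.479 on day 0, 4.16-fold in means and 1.3 ± 0.15 on the log2 scale (limma adjusted p = 0.000107). Nuclei had 1.27, 1.51 and 1.05 FPKM on day 12, against 0.538, 0.435 and 0.568 on day 0, 2.49-fold and 0.81 ± 0.15 (adjusted p = 0.00217). Neither pair of groups overlapped, and both calls held under every alternative run. In whole cells labelled day 12 Gata4 had 0.429, 0.556 and 0.386 FPKM, which overlapped day 0 and lay below every day 10 library (log2 change from day 10 of -0.99 ± 0.17, adjusted p = 0.000364).

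**Figure D1:**
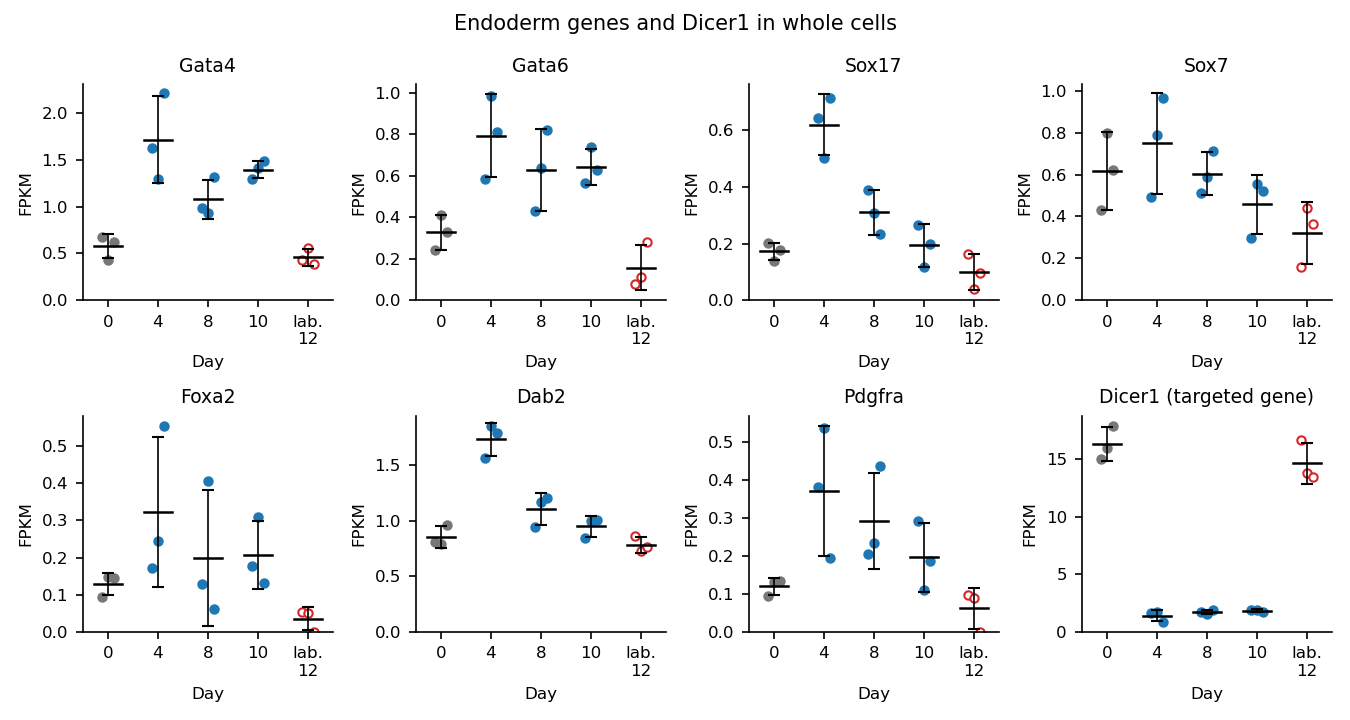
FPKM of the 7 endoderm genes and of Dicer1 in each whole cell library by day; dots are libraries, black lines means and bars SD (n = 3), open red dots the libraries labelled day 12. Gata4 lies above day 0 on days 4, 8 and 10, Sox17 and Dab2 have their highest mean on day 4, and Dicer1 is low on days 4 to 10 but not in the libraries labelled day 12.

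Gata6 had lower levels and just missed the threshold. The gene lies on chromosome 18 at 11052064-11085635 of GRCm38, plus strand, identifier ENSMUSG00000005836. Whole cells held 0.243, 0.409 and 0.330 FPKM on day 0, 0.586, 0.983 and 0.814 on day 4, 0.429, 0.636 and 0.820 on day 8, and 0.565, 0.738 and 0.630 on day 10. All libraries of days 4, 8 and 10 lay above all of day 0, by margins as small as 0.429 against 0.409 FPKM on day 8. The log2 changes from day 0 were 0.64 ± 0.18 (limma adjusted p = 0.0540), 0.44 ± 0.18 (0.0869) and 0.47 ± 0.18 (0.0506). With voom on the recovered fragments they passed, at adjusted p = 0.013, 0.0269 and 0.0165. The libraries of days 0, 4, 8 and 10 rest on 9 to 30 fragments each, and day 4 also passed without day 4 replicate 1 (adjusted p = 0.0405). The libraries labelled day 12 (0.0798, 0.112 and 0.28 FPKM) lay below every day 10 library (log2 change of -0.81 ± 0.18, adjusted p = 0.00272). They rest on only 2, 3 and 6 fragments.

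In nuclei Gata6 had 0.814, 0.965 and 0.965 FPKM on day 12, against 0.976, 0.526 and 0.458 on day 0. The groups overlapped through day 0 replicate 1, and no change was called (log2 0.32 ± 0.19, limma adjusted p = 0.216). Cytoplasm had 0.298, 0.502 and 0.477 FPKM on day 12, against 0.349, 0.392 and 0.208 on day 0, also not called (0.18 ± 0.19, adjusted p = 0.522). On day 12 nuclei stood above cytoplasm (0.62 ± 0.19, adjusted p = 0.0301), but this call failed without nucleus replicate 2 or 3 and without any 1 of the 3 cytoplasm libraries of day 12. It also failed with quantile normalization, and the adjusted p over all alternatives was 0.0129 to 0.35. Gata6 passed the filter of the fraction fit only through nuclei, with means of 0.914 FPKM on day 12 and 0.653 on day 0. Cytoplasm averaged 0.426 and 0.316 FPKM on those days. Gata6 could thus hardly be kept without being high in nuclei. Fitted with no filter, the day 12 difference was still called (limma adjusted p = 0.036). The opposite-strand gene 1010001N08Rik overlaps Gata6 and reached at most 0.154 FPKM in a group mean; whether the counting used strand is not given in the sources used here.

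Sox17 passed the test on day 4 and was lower again by day 10. The gene lies on chromosome 1 at 4490931-4497354 of GRCm38, minus strand, identifier ENSMUSG00000025902. Whole cells held 0.201, 0.140 and 0.176 FPKM on day 0 and 0.643, 0.503 and 0.714 on day 4. On day 8 they held 0.390, 0.306 and 0.233 FPKM and on day 10 0.267, 0.116 and 0.198. Day 4 lay above every library of every other group, and day 8 also lay above day 0. Its mean was 3.6-fold that of day 0, a log2 change of 0.73 ± 0.15 (limma adjusted p = 0.0102), and day 10 was below day 4 by -0.69 ± 0.15 (adjusted p = 0.00364). The day 8 mean was 1.80-fold that of day 0 on 5 to 8 fragments per library, with no call (0.27 ± 0.15, adjusted p = 0.223). The day 4 values rest on 11 to 15 fragments per library, and Sox17 passed the filter on low values through day 4 only, so it could hardly be kept without being high there. In the fractions it stayed at or below 0.167 FPKM in every library and was listed at 0 in 2 of the 12.

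Sox7, of the same SoxF family, showed no such rise. It lies on chromosome 14 at 63943673-63950732 of GRCm38, plus strand, identifier ENSMUSG00000063060. Whole cells held 0.430, 0.801 and 0.620 FPKM on day 0, 0.492, 0.788 and 0.967 on day 4, 0.513, 0.586 and 0.714 on day 8, and 0.298, 0.556 and 0.522 on day 10. Days 4, 8 and 10 each overlapped day 0, and the day 4 change was 0.16 ± 0.20 (limma adjusted p = 0.745). The test across all 5 days did not pass either (adjusted p = 0.118). Fractions held 0.0461 to 0.425 FPKM of Sox7, below the filter.

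Foxa2 and Pdgfra stayed below 0.5 FPKM on average in every group and were not in the fits. Foxa2 lies on chromosome 2 at 148042877-148046969 of GRCm38, minus strand, identifier ENSMUSG00000037025. Whole cells held 0.0945, 0.149 and 0.144 FPKM on day 0, 0.171, 0.244 and 0.554 on day 4, 0.130, 0.408 and 0.0621 on day 8, and 0.178, 0.309 and 0.132 on day 10. These values are 1 to 8 fragments per library, and on days 8 and 10 they overlapped day 0. Pdgfra lies on chromosome 5 at 75152292-75198215 of GRCm38, plus strand, identifier ENSMUSG00000029231. Pdgfra had 0.0941, 0.131 and 0.133 FPKM on day 0, 0.381, 0.535 and 0.195 on day 4, 0.205, 0.233 and 0.437 on day 8, and 0.292, 0.109 and 0.186 on day 10. For both genes the day 4 libraries lay above those of day 0, with ratios of means of 2.50 and 3.11. Fitted with no filter, the log2 change on day 4 was 0.36 ± 0.19 for Foxa2 (limma adjusted p = 0.451) and 0.47 ± 0.15 for Pdgfra (adjusted p = 0.139), so neither day 4 change was detectable at this depth. With no filter Pdgfra did pass the F-test across the 5 days (adjusted p = 0.0342), while Foxa2 did not (0.157). Nuclei held 0.303, 0.285 and 0.350 FPKM of Pdgfra on day 12 and 0.269, 0.216 and 0.188 on day 0, and cytoplasm 0.104, 0.135 and 0.135 on day 12 and 0.0557, 0.067 and 0.122 on day 0. With no filter Pdgfra was higher in nuclei than in cytoplasm, by 0.38 ± 0.08 on day 12 (adjusted p = 0.00562) and by 0.32 ± 0.08 on day 0 (adjusted p = 0.0112). So was Foxa2 on day 0, with 0.282, 0.137 and 0.178 FPKM in nuclei, against 0.0317, 0 and 0.0316 in cytoplasm (0.42 ± 0.12, adjusted p = 0.0286), on at most 1 fragment in each cytoplasm library.

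Dab2 passed the test on day 4 in whole cells. The gene lies on chromosome 15 at 6299788-6440712 of GRCm38, plus strand, identifier ENSMUSG00000022150. Whole cells held 0.803, 0.786 and 0.963 FPKM on day 0 and 1.57, 1.85 and 1.79 on day 4. On day 8 they held 0.942, 1.17 and 1.2 FPKM and on day 10 0.841, 0.999 and 1.00. Day 4 stood above all other whole cell libraries, while days 8 and 10 overlapped day 0. The day 4 mean was 2.04-fold that of day 0, a log2 change of 0.73 ± 0.12 (limma adjusted p = 0.00159), and day 10 was below day 4 by -0.63 ± 0.12 (adjusted p = 0.00119). The day 8 change was 0.25 ± 0.12 (adjusted p = 0.137), and voom called it (0.39, adjusted p = 0.0411). These libraries carry 40 to 166 Dab2 fragments each, the most of any member. The overlapping opposite-strand gene Gm16311 was listed at 0 in every group.

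In the RefSeq promoter table, with 250 bases before and 50 after each start, 3 of the members have entries: Foxa2, Pdgfra and Dab2. GATA factors bind short motifs around the letters GATA. These were searched on both strands in the form AGATAA, in the form AGATAG, with T first in the form TGATAA, and with T first and G last in the form TGATAG, and 29.8% of 32851 promoters hold at least 1 match. Of the 2 Dab2 promoters, the upstream one held 2 matches, and they are shown because Dab2 and Gata4 both rose on day 4; capitals mark the motif, the second one being TTATCT, the reverse complement of AGATAA.
Dab2 (chr15:6299598-6299627, plus strand, GRCm38.p6): tgatttttcttcTGATAAcaggaataggag
Dab2 (chr15:6299791-6299820, plus strand, GRCm38.p6): attctctttggcTTATCTgctgtgcatttt
The downstream Dab2 promoter and that of Pdgfra held none, and 1 of the 3 Foxa2 promoters held 1. No binding was measured in this series.

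**Figure D2:**
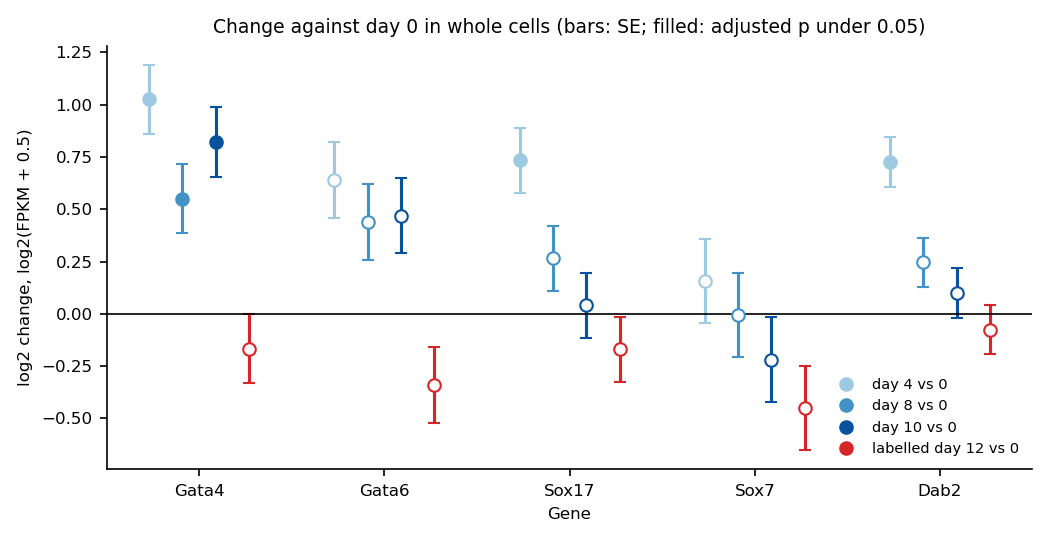
Log2 change from day 0 on the log2(FPKM + 0.5) scale for the 5 endoderm genes kept in the whole cell fit; bars are SE and filled dots have an adjusted p under 0.05. Gata4 is filled on days 4, 8 and 10 (1.02, 0.55 and 0.82), Sox17 and Dab2 on day 4 only (0.73 each), and no change passes in the libraries labelled day 12.

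Nuclear Dab2 differed between libraries of 1 group. On day 12 nuclei held 0.848, 1.00 and 0.993 FPKM of Dab2, against 2.98, 3.68 and 0.978 on day 0, and the third day 0 library overlapped day 12. The change was -0.94 ± 0.31 (limma adjusted p = 0.0339), and it was not called without day 0 replicate 1 or 2, without any 1 of the 3 day 12 libraries, with no filter, with only those groups fitted, or with quantile normalization (adjusted p 2.86e-05 to 0.154 over all alternatives). On day 0 nuclei stood above cytoplasm by 0.94 ± 0.31 (adjusted p = 0.0299). That comparison set 2.98, 3.68 and 0.978 FPKM in nuclei against 0.920, 0.996 and 0.927 in cytoplasm, and it was not called without nucleus replicate 1 or 2, without any 1 of the 3 cytoplasm libraries, with only those groups fitted, or with quantile normalization (adjusted p 6.64e-06 to 0.201 over all alternatives). Cytoplasm held 0.787, 0.897 and 0.741 FPKM of Dab2 on day 12, below each day 0 cytoplasm library, with no call (-0.15 ± 0.31, adjusted p = 0.769).

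Nucleus day 0 replicate 3, where Dab2 was low, also stood apart from replicates 1 and 2 in other genes. Dicer1 had 15.1, 16.8 and 7.86 FPKM in replicates 1, 2 and 3, and the trophoblast markers summed to 730, 655 and 447. Naive stem cell markers went the other way (782, 729 and 1048), as did endothelial markers (22.6, 24.4 and 31.7). Lrp2, Col1a1 and Vim were named after their values were seen. In nucleus day 0 replicates 1, 2 and 3, Lrp2, which encodes the cargo receptor megalin that DAB2 binds, had 15.6, 19.1 and 3.14 FPKM. Col1a1, a collagen of fibroblasts, had 68.8, 54.6 and 18.5 FPKM in those libraries, and the intermediate filament gene Vim had 267, 241 and 106. On day 12, when nuclear Dab2 was even, Lrp2 still had 45.8, 7.90 and 9.67 FPKM in nucleus replicates 1, 2 and 3. The 10 fibroblast markers summed to 465 to 511 FPKM in nuclei on day 12, against 299 to 592 on day 0. Of the 8 tested, 2 were higher and 5 lower in nuclei on day 12, where 36.7% of all genes were called. In the day 0 comparison of nucleus with cytoplasm 7 of the 8 were higher in nuclei, where 41.8% of genes were called. The nucleus to cytoplasm ratio was higher on day 12 for 0 and lower for 4 of the 8, where 1.33% of genes were called. The part of these genes in the Dab2 values was not tested.

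**Figure D3:**
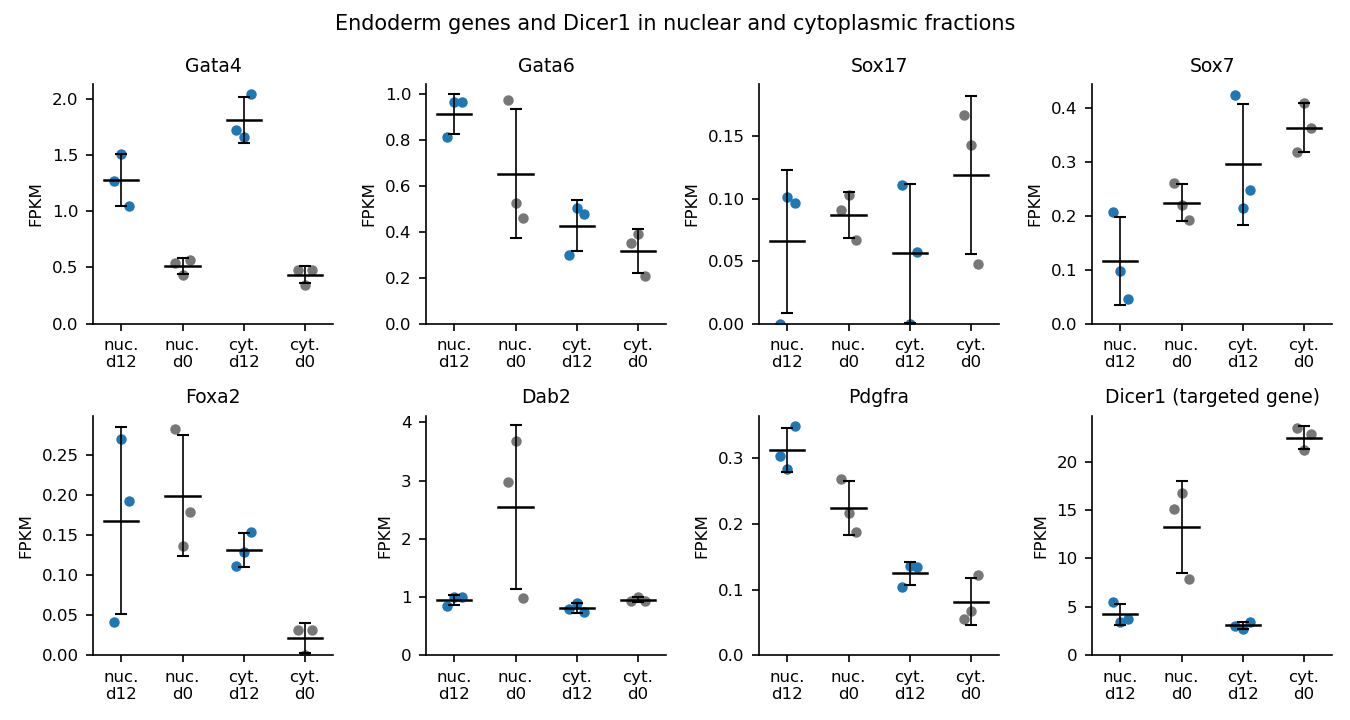
FPKM of the 7 endoderm genes and of Dicer1 in nuclear and cytoplasmic libraries, day 12 left of day 0; dots are libraries, lines means and bars SD (n = 3). Gata4 is higher on day 12 in both fractions, and nuclear Dab2 on day 0 spreads from 0.978 to 3.68 FPKM.

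**Figure D4:**
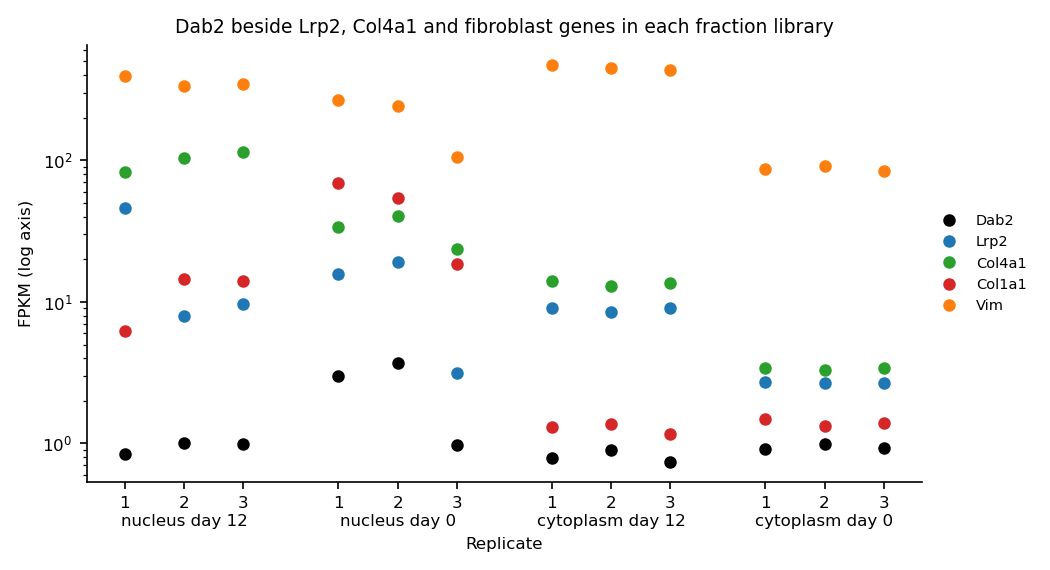
FPKM on a log axis of Dab2, Lrp2, Col4a1, Col1a1 and Vim in each of the 12 fraction libraries, grouped by fraction and day. In nucleus day 0, replicate 3 is the lowest for each of the 5 genes.

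The counts of members called were set beside those over all genes, as a description. On day 4, 3 of the 5 tested members rose (Gata4, Sox17 and Dab2), while 6.7% of 15991 genes were called and 4.88% rose. The median log2 change of the 5 was 0.73, beside 0.00 for all genes. Sox17 entered the fit only through day 4, and Gata6 only through days 4, 8 and 10, where each was high, so these counts and the median describe the genes kept and support nothing further. When only the day 4 and day 0 libraries were fitted, none of the 3 passed in limma (adjusted p = 0.0626, 0.0965 and 0.0604), and leaving out any 1 of those 6 libraries from the full fit kept all 3. On day 8, 1 of 5 rose (Gata4), where 29.8% of genes were called and 20.2% rose. On day 10 it was again 1 of 5 (Gata4), where 43.7% were called and 27.7% rose. The days share the day 0 libraries, so these counts are not independent of each other.

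From day 4 to day 10, 2 of 5 members fell (Sox17 and Dab2), while 37.4% of genes were called and 14.2% fell. In the libraries labelled day 12, 2 of 5 were below day 10 (Gata4 and Gata6), where 45.8% were called and 25.2% were lower. Against day 0, limma called 0 of 5 in the libraries labelled day 12 (13.6% of all genes), 1 had an unadjusted p under 0.05 (Sox7), and voom also called 0. Across the 5 days, 4 of 5 passed the F-test (all but Sox7), with 54.2% of all genes, and 5 did with no filter (Pdgfra added). Without the libraries labelled day 12 Gata6 no longer passed that test (adjusted p = 0.0572).

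In the fractions 3 members were tested. On day 12 against day 0, 2 of 3 were called in nuclei (Gata4 higher, Dab2 lower), with 36.7% of 17124 genes. In cytoplasm 1 of 3 was called (Gata4, higher), with 32.6% of genes called and 16% higher. Nucleus and cytoplasm differed for 1 of 3 on day 12 (Gata6, 34.1% of genes) and for 1 of 3 on day 0 (Dab2, 41.8%). Gata6 entered this fit only through nuclei, where it was high, so its count describes a gene kept for its nuclear level. The change of the nucleus to cytoplasm ratio was called by limma for 0 of 3, with 1.33% of genes. One, Gata4, had an unadjusted p under 0.05 (log2 change of the ratio -0.50 ± 0.21), and voom called 0. Without nucleus day 0 replicate 3 the ratio of Dab2 passed (-1.25, adjusted p = 0.00322).

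Ordered by level, the groups of each gene mostly ran into each other. Dab2 was highest in day 0 nuclei (2.55 ± 1.40 FPKM), which overlapped day 4 whole cells (1.73 ± 0.149), and day 4 in turn lay apart from day 8 (1.10 ± 0.141). Gata4 led in day 12 cytoplasm (1.81 ± 0.204 FPKM) and ended in day 0 cytoplasm (0.436 ± 0.0767), with its 1 gap between neighbours at day 8 above day 0 whole cells. Gata6 led in day 12 nuclei (0.914 ± 0.0872) and ended in the libraries labelled day 12 (0.157 ± 0.107), with no gap between neighbours. Sox17 (0.620 ± 0.107), Sox7 (0.749 ± 0.240), Foxa2 (0.323 ± 0.204) and Pdgfra (0.371 ± 0.171) were all highest in day 4 whole cells, and of these only Sox17 lay apart from the next group. Levels set across whole cells and fractions are relative to different pools of RNA.

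Of the products and surface genes of extraembryonic endoderm, 4 of 17 tested rose on day 4 and 0 fell (median log2 change 0.28), where 4.88% of all genes rose. They were the transcriptional coactivator gene Cited1 (1.08 ± 0.14), the basement membrane collagen genes Col4a2 (1.07 ± 0.17) and Col4a1 (0.95 ± 0.18), and Sparc (0.69 ± 0.13), whose product binds collagen. Limma adjusted p-values were 0.000188, 0.00116, 0.00431 and 0.00482, and voom called 5 of 17. On day 10, 9 rose and 1 fell (median 0.65), where 27.7% of all genes rose, led by Sparc (1.78 ± 0.13), Col4a2 (1.75 ± 0.17), Col4a1 (1.69 ± 0.18) and the nidogen gene Nid1 (1.57 ± 0.20). Col4a1 stood at 14.3 ± 4.06 FPKM on day 4 and 23.5 ± 1.14 on day 10, against 6.93 ± 0.400 on day 0. Ttr, Apoa4 and Afp, products of mature visceral endoderm that were named after their values were seen, stayed near 0. Ttr and Apoa4 were listed at 0 in every whole cell library of days 4, 8 and 10. Afp, alpha-fetoprotein, averaged 0.0447 FPKM on day 4 and 0.0767 on day 10, against 0.0266 on day 0. Of the 22 genes of the list, 5 averaged under 0.1 FPKM on day 4 and 5 on day 10, so these genes do not stand for the list.

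In cytoplasm on day 12 the same list had 8 genes higher and 2 lower of 16, led by Col4a2 (1.90 ± 0.19) and Col4a1 (1.86 ± 0.17). Over all genes 32.6% were called there and 16% were higher. In nuclei the list had 6 higher and 4 lower of 16, where 36.7% of all genes were called. Nid1 was highest (1.97 ± 0.24) and the keratin gene Krt19 was among those lower (-1.31 ± 0.17).

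No rise of the other endoderm factors was called by limma on day 4, where 4.88% of all genes rose. A list of 6 tested genes is too short to tell 0 from that share. On day 4, 0 of 6 tested rose and 1 fell in limma, Otx2 (-0.38 ± 0.10, adjusted p = 0.0363), a factor of visceral endoderm and of primed epiblast; 2 had an unadjusted p under 0.05 and voom called 0 higher and 1 lower. The Otx2 call was lost with median-of-ratios scaling and without the libraries labelled day 12. By day 10 Otx2 (-2.02 ± 0.10) and Foxa3 (-0.96 ± 0.20) were lower and Hhex, a homeobox gene of anterior endoderm, was higher (0.57 ± 0.18). The Hhex call was not made under either scaling alternative. On day 10, 5 of the 6 had an unadjusted limma p under 0.05. Voom called 3 higher and 2 lower, and without the libraries labelled day 12 limma called 2 higher and 2 lower. Hnf4a, a nuclear receptor of visceral endoderm, was listed at 0 in all day 4 libraries and averaged 0.00969 FPKM on day 10, against 0.0210 on day 0. Of the definitive endoderm markers, limma called 0 of 6 on day 4 (1 at an unadjusted p under 0.05, 1 with voom). Over all genes 6.7% were called there, and 6 genes are again too few to tell 0 from that share. On day 10 limma called 3 of 6 higher and 0 lower, where 27.7% of all genes rose. They were the cadherin gene Cdh2 (1.82 ± 0.19), the Nodal inhibitor gene Lefty1 (0.61 ± 0.10) and the chemokine receptor gene Cxcr4 (0.61 ± 0.22). Median-of-ratios scaling left 2 of these higher.

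Ligands and relatives of the members were called higher by limma on day 10 and not on day 4. Over all genes, too, 4.88% rose on day 4 and 27.7% on day 10, so this timing is not particular to these lists. Lists of 4 tested genes are also too short to tell 0 from the day 4 share. Of the PDGF ligands and the second receptor gene, 0 of 4 passed in limma on day 4 (2 at an unadjusted p under 0.05, 1 with voom). On day 10 all 4 tested rose, where 27.7% of all genes rose. They were Pdgfc (2.05 ± 0.16), Pdgfrb (0.99 ± 0.16), Pdgfa (0.94 ± 0.23) and Pdgfb (0.52 ± 0.17), and 3 of them also rose with quantile normalization. Pdgfa, the ligand of PDGFRA in the blastocyst, was thus higher on a day when Pdgfra itself had 0.292, 0.109 and 0.186 FPKM. In the GATA family, Gata2 (1.60 ± 0.18), Gata3 (1.56 ± 0.15) and the cofactor gene Zfpm2 (1.01 ± 0.14) rose by day 10, 3 of 4 tested, and on day 4 limma and voom each called 0 of 4, with 0 at an unadjusted p under 0.05. In the fractions Gata3 was higher on day 12 in cytoplasm (2.18 ± 0.16) and in nuclei (1.64 ± 0.16), and the cofactor gene Zfpm1 was lower in both (-1.11 ± 0.15 and -1.37 ± 0.15).

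FGF and ERK signalling drives primitive endoderm in the blastocyst. On day 4, 0 of 18 of its genes rose and 1 fell in limma. Over all genes 6.7% were called there, so this count does not set the list apart. The gene that fell was the immediate early gene Egr1 (-0.87 ± 0.20, limma adjusted p = 0.0173). In this list 3 genes had an unadjusted limma p under 0.05. Voom gave 0 higher and 2 lower, and quantile normalization 0 higher and 3 lower. On day 10, 1 of 18 rose and 3 fell, where 43.7% of all genes were called and 27.7% rose. The phosphatase gene Dusp6 was higher (0.70 ± 0.16). Among those lower were Fgf5 (-1.49 ± 0.17) and the ERK1 gene Mapk3 (-0.38 ± 0.08), and median-of-ratios scaling gave 6 lower. Of the receptors and clathrin adaptors that work with DAB2, 1 of 11 rose on day 4, the megalin chaperone gene Lrpap1 (0.31 ± 0.06, adjusted p = 0.00840), and 3 did with median-of-ratios scaling. On day 10, 5 of 11 rose and 1 fell, beside the same 27.7% of all genes higher. Among them Lrpap1 (1.09 ± 0.06) and the clathrin adaptor subunit gene Ap2b1 (0.65 ± 0.23) were higher and Amn, an anchor of cubilin, was lower (-0.66 ± 0.18).

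Markers of other cell types moved over the same days, and 4.88% of all genes rose on day 4. On day 4, 2 of 9 trophoblast markers rose, Krt18 (0.87 ± 0.10) and Krt8 (0.64 ± 0.15), keratins that endoderm also makes (1 of the list with quantile normalization), and the 10 genes summed to 267 to 303 FPKM, against 151 to 201 on day 0. Of the fibroblast markers Vim rose (0.70 ± 0.11) and Thy1 fell (-0.87 ± 0.15), the list summing to 185 to 257 FPKM on day 4, against 128 to 156 on day 0, with Lum at 0 in both. The neural gene Sox1 rose (0.67 ± 0.15), 1 of 4 tested, but was not called with quantile normalization. Cardiac cells make Gata4 and endothelial cells make Sox17 and Sox7, and on day 4 limma called 0 of 4 tested genes of either list. With 4 of 8 genes tested per list, 0 cannot be told from the 4.88% of all genes. At an unadjusted p under 0.05 there were 0 cardiac and 1 endothelial genes, and voom called 0 and 1; either scaling alternative also called 1 endothelial gene. The 8 cardiac markers summed to 2.32 to 3.62 FPKM on day 4, against 2.10 to 2.95 on day 0, with Tbx5 at 0 on day 4, and the 8 endothelial markers to 15.8 to 23.0, against 17.4 to 18.9, with Emcn at 0 on day 4.

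By day 10 these lists stood higher, on a day when 43.7% of all genes were called and 27.7% rose. The cardiac list summed to 11.3 to 12.9 FPKM on day 8. Gata4 then averaged 1.077 FPKM, against 1.711 on day 4 and 1.395 on day 10, with libraries that overlapped both days and no test of these differences. On day 10 the cardiac list summed to 8.91 to 9.77 FPKM with 3 of 4 tested genes higher (Nkx2-5 by 2.25 ± 0.30, Actc1 by 1.53 ± 0.21), and the endothelial list to 40.6 to 42.9 FPKM with 3 of 4 higher. The fibroblast list summed to 836 to 858 FPKM with 6 of 8 higher (Acta2 by 3.17 ± 0.15, Vim by 2.66 ± 0.11) and 1 lower, and the trophoblast list to 523 to 558 FPKM with 6 of 9 higher and 1 lower. Either scaling alternative left 2 cardiac genes higher. In the libraries labelled day 12 the cardiac and endothelial lists summed to 2.44 to 3.86 and 16.9 to 23.0 FPKM, the fibroblast list to 227 to 265 and the trophoblast list to 370.1 to 412 FPKM. In nuclei the cardiac list summed to 2.35 to 3.15 FPKM on day 12, against 5.81 to 6.88 on day 0, while Gata4 was higher on day 12. The part of these cells or genes in the Gata4, Sox17 and Sox7 values of days 4 to 10 was not tested. Naive stem cell markers summed to 1070 to 1341 FPKM on day 4 and 1157 to 1240 on day 10, against 1055 to 1162 on day 0, with 0 of 10 called on day 4 in limma (4 at an unadjusted p under 0.05, 1 higher and 1 lower with voom).

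**Figure D5:**
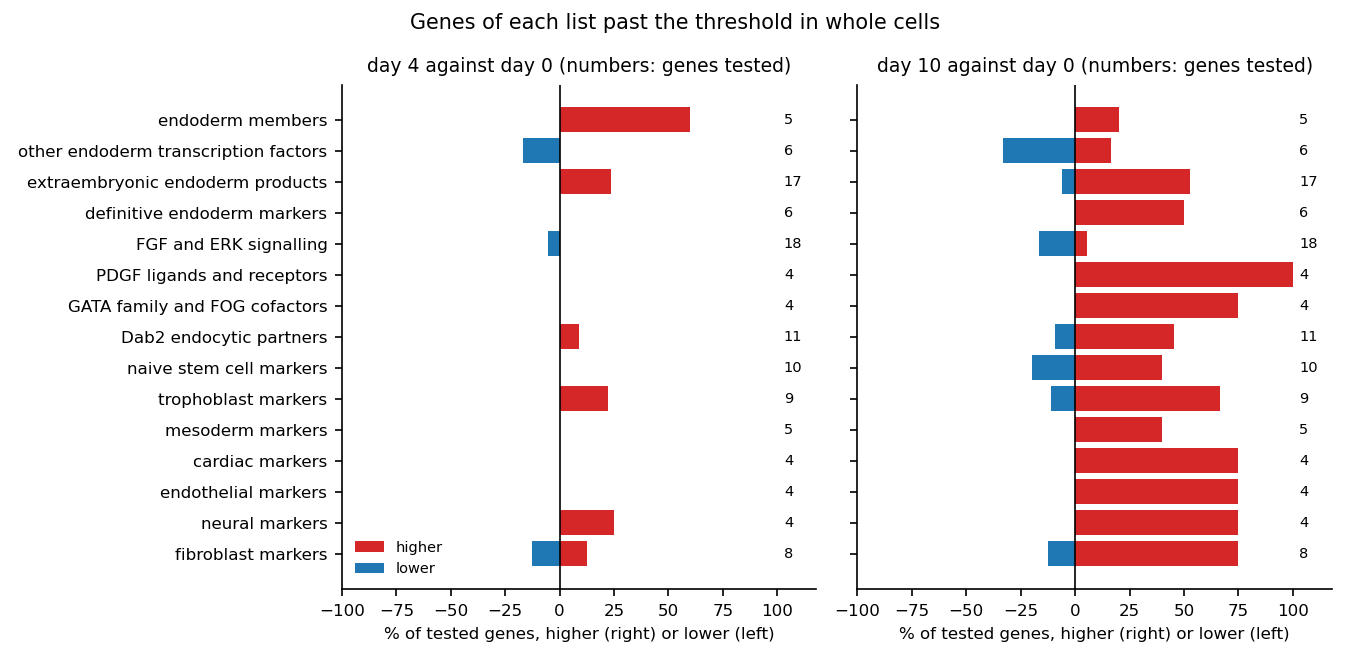
Share of tested genes of each list past the threshold in whole cells, higher to the right and lower to the left, on day 4 (left panel) and day 10 (right panel) against day 0, with the number tested beside each bar. Of the endoderm genes 3 of 5 are higher on day 4 (0 of 5 when only those 2 groups are fitted, and Sox17 was kept only through day 4) and 1 of 5 on day 10; shares were not tested between lists.

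The genes with the profile most like each member over the 15 whole cell libraries were sought among 10138 named protein-coding genes, as a description that shares libraries and days. Sox17 ran most like Hes6 (Pearson r = 0.919), a neural basic helix-loop-helix gene with 29.2 FPKM on day 4 against 18.9 on day 0, then Srgn (0.900), the serglycin proteoglycan gene, with 4.20 FPKM against 0.637, and Rbbp9 (0.871). Dab2 had 2 of the same genes in its own 3, Srgn (0.860) and Hes6 (0.842), followed by Rad52 (0.814). Gata4 was nearest to Mrps2 (0.913), Gadd45g (0.903) and Tgs1 (0.893). Gadd45g, a stress-inducible gene, had 22.6, 15.3 and 21.1 FPKM on days 4, 8 and 10, against 9.63 on day 0. Gata6 was nearest to the transcription factor gene Neurod1 (0.898), Prdx3 (0.852) and Gbx2 (0.848), and Sox7 to Ube2d1 (0.814), Gnai1 (0.784) and Papola (0.754). Without the libraries labelled day 12, 1 of the 3 genes was kept for Sox17 (Hes6) and 0 of 3 for each of the other 4 members. With Spearman's correlation 0 of 3 were kept for Dab2, 1 for Gata6, 2 for Gata4 and 3 each for Sox17 and Sox7.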

How the data were processed

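The authors deposited an FPKM value per gene and library, per the file headers. TopHat2 2.0.9, Cufflinks 1.3.0 and the build mm9 are listed, without their roles, per the submitters' processing notes. The annotation, the strand setting and the treatment of multiply mapped reads are not stated. Symbols and positions came from GENCODE M21 (GRCm38) for 36253 of 38123 identifiers, and no mm9 coordinate was used.

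FPKM was tested as log2(FPKM + 0.5) with limma 3.58.1 (eBayes with trend) in R 4.3.3, with Benjamini-Hochberg adjustment over all genes tested and a threshold of 0.05. A gene entered a fit when 1 of its groups averaged 0.5 FPKM or more, which kept 15991 in the fit of 15 whole cell libraries and 17124 in that of 12 fraction libraries. Fragment counts were recovered where values fell within 0.02 of whole fragments. Nothing in the labels ties replicates to separate cultures, and p-values then cover only the spread between libraries, which may be technical. On simulated data a log2 change of 1 was found by limma for 76% of the altered genes in the day 4 comparison (15107 genes, 10 false calls) and for 58% in the cytoplasm comparison (15950 genes, 15 false calls). Altered genes were drawn only from those averaging above about 0.5 FPKM over the fit, with normal noise. These shares therefore do not cover lower genes such as Sox17, Foxa2 and Pdgfra.

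Members and gene lists were chosen with earlier results of these data known. The rule named all members, Dicer1, up to 4 genes per list with the largest change past the threshold, and the 3 most alike genes that reached a mean of 2 FPKM in 1 whole cell group; Pou5f1, Afp, Ttr, Apoa4, Hnf4a, Lrp2, Col1a1, Vim and Pdgfa were also named after their values were seen. One gene that the rule named is not reported here. Each result was recomputed with a pseudocount of 0.1 or 1, without the filter or with a minimum mean of 1 FPKM, after median-of-ratios scaling or quantile normalization, and with a block for the replicate number. Other fits held just the groups compared, just protein-coding and lncRNA genes, all but 1 library, or all but the libraries labelled day 12. Chosen after seeing the data were voom on the recovered fragments and leaving out the 2 nuclear libraries farthest from their group. Sites and motifs were searched with Python 3.11.15, numpy 2.4.6 and pandas 2.3.3, and figures drawn with matplotlib 3.10.9.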

Additional observations from a re-analysis of the deposited data

How the results depend on the processing

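Counts below are members called, and no called change turned its sign under any alternative run. Changes that were not called could turn, such as nucleus against cytoplasm on day 0 for Gata4 (log2 -0.36 to 0.21) and day 10 against day 0 for Dab2 (-0.17 to 0.16). Fitting only the groups compared gave 0 on day 4 (3 in the full fit), 2 on day 10 (1), 1 for day 10 against day 4 (2), 1 for nucleus day 12 against day 0 (2) and 0 for nucleus against cytoplasm on day 0 (1). On day 8 the count was 0 after quantile normalization, 0 after median-of-ratios scaling, and 3 with voom on fragments (1 in the full fit). On day 10 it was 2 with protein-coding and lncRNA genes alone and 2 with voom. A minimum mean of 1 FPKM gave 1 for day 10 against day 4, 1 for labelled day 12 against day 10 (2), 2 across the 5 days (4) and 0 for nucleus against cytoplasm on day 12 (1), since it tests fewer members. With no filter the counts were 1 for nucleus day 12 against day 0, 3 for nucleus against cytoplasm on day 0 and 2 on day 12, and 5 across the 5 days. Quantile normalization gave 1 and 0 for the first 2 of these. For nucleus against cytoplasm on day 0 voom gave 2. Without the 2 nuclear libraries farthest from their group, nucleus against cytoplasm gave 2 on day 0 and 2 on day 12, and the change of the ratio gave 1 (Dab2). Except where the filter sets the members tested, the cause was not tested.

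Leaving out 1 library gave 3 to 4 on day 4, 0 to 1 on day 8, 1 on day 10, 2 for day 10 against day 4, 0 for labelled day 12 against day 0, 2 against day 10, and 4 across the days. In the fractions it gave 1 to 2 for nuclei, 1 for cytoplasm, 0 to 2 for nucleus against cytoplasm on day 0, 0 to 1 on day 12 and 0 to 1 for the ratio. Deviations of same-numbered replicates had correlations of -0.35 to 0.261 over 16 pairs of groups, and in 0 of these pairs were all of them over 0.1. Beyond these values, whether the numbers pair the libraries was not tested. With the replicate number as a block the count was 2 on day 10 and 0 for nucleus against cytoplasm on day 12, Gata6 passed on days 4 and 10 (adjusted p = 0.0301 and 0.0279), and the F-test of Sox7 passed (0.0252). The median gene of the nucleus and cytoplasm comparison on day 0 lay at 0.12 as deposited and -0.10 with quantile normalization. Foxa2, Pdgfra, Sox17 and Gata6 rest on few fragments, which limits what could be detected.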
